A study of Rattus norvegicus with 8 samples.

Results

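Voltage-gated sodium, voltage-gated calcium and HCN channel subunits form 46 probe sets of 31 genes on the rat array used here. They were taken by symbol, as every probe set with 1 gene symbol that begins with Scn, Cacna1, Cacna2, Cacnb or Hcn and a number, and the calcium channel gamma subunits (Cacng) were left out. These 46 stand among 20826 probe sets with 1 symbol and 31042 probe sets that are not controls.

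The samples were frontal cortex from outbred male Sprague-Dawley rats, compared after 21 days of olanzapine or of saline, with 4 arrays per group. Olanzapine, an antipsychotic that blocks dopamine and serotonin receptors, was given intraperitoneally at 2 mg/kg/day. Each group held 20 rats of about 200 g at the start, assigned at random. The array titles carry the numbers 9, 14, 18 and 19 in the olanzapine group and 14, 15, 17 and 19 in the saline group, taken here as animal numbers, and arrays are called olanzapine 9, saline 14 and so on. Homogenised tissue was measured, so fewer cells of a type and less RNA per cell cannot be told apart.

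Sodium channels open on depolarisation and carry the upstroke of the action potential, and in cortical neurons they are densest at the axon initial segment. Calcium channels turn that depolarisation into calcium entry, which triggers transmitter release at terminals and signals to enzymes and genes in dendrites and cell bodies. HCN channels open on hyperpolarisation, are sensitive to cyclic AMP, and set the resting potential and the summation of inputs in dendrites.

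Values are probe set intensities as deposited, on a linear scale. Differences are olanzapine minus saline on log2(intensity + 63.4), a scale that understates the change of dim genes, and they come from limma fitted across all probe sets tested. A probe set was tested when its mean over the 8 arrays lay above the 40th percentile, which is near an intensity of 114. Of the 46 channel probe sets, 21 were tested (45.7%, against 62.9% of all probe sets with 1 symbol), and they stood for 17 genes. The remaining 25 probe sets were dimmer, with single values of 2.26 to 199.7, and 14 genes had no tested probe set. A dim probe set does not show that its gene is absent from the tissue. Scn2b read 4537 to 5968 on 1396405_at but 10.5 to 93.2 on 1369311_at. The neuron marker Syt1 was also below the filter, at 74.8 to 137. Where a gene had several probe sets, its value is that of the brightest unless another is named by its ID.

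No channel gene passed the test after adjustment. Limma with Benjamini-Hochberg adjustment called 0 of the 21 channel probe sets and 0 of all 18625 (0% called), and the smallest adjusted p among the channels was 0.518. At an unadjusted p under 0.05 there was 1 of 21, Cacna2d3, which is 4.76% against 8.32% of all probe sets tested. Of the 21, 9 were higher and 12 lower, and 42.9% were higher against 56% of all probe sets. The median log2 difference over the 21 was -0.012, beside 0.027 over all probe sets tested. After quantile normalization these medians were -0.054 and 0.0047.

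**Figure D1:**
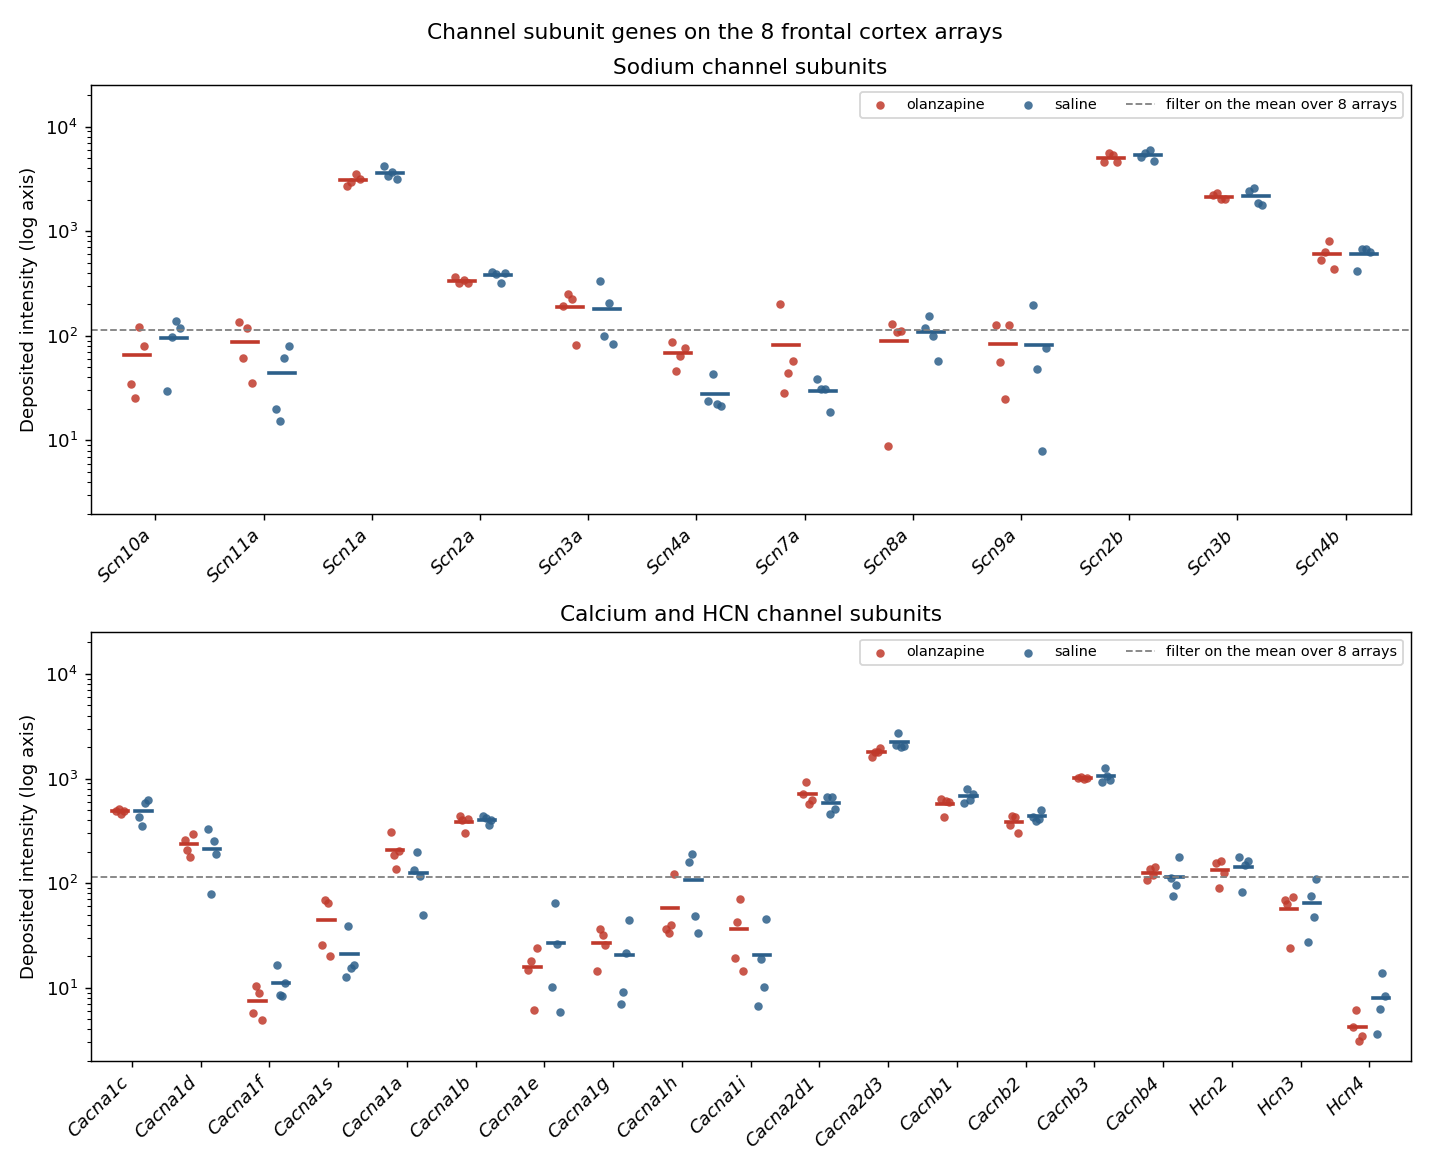
Deposited intensity on a log axis for the brightest probe set of each of the 31 channel genes, with a point per array (olanzapine left in red, saline right in blue), a bar at each group mean and a dashed line near 114, the intensity at the filter. Cacna2d3 and Scn4a are the genes in which the 4 olanzapine points do not overlap the 4 saline points.

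The arrays allowed the size of a missed difference to be bounded on the scale used. That scale understates the change of dim genes, so for them the limits below are too narrow as limits on intensity. For 14 of the 21 probe sets (66.7%, against 67.6% of all tested) the 95% interval of the difference lay within 1.5-fold either way, and for 20 it lay within 2-fold. The exception was Cacna1a. Half-widths of the interval ran from 0.21 to 0.67 on the log2 scale, with a median of 0.34. The median SD within a group was 0.21 for the channels, beside 0.22 for all probe sets tested.

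**Figure D2:**
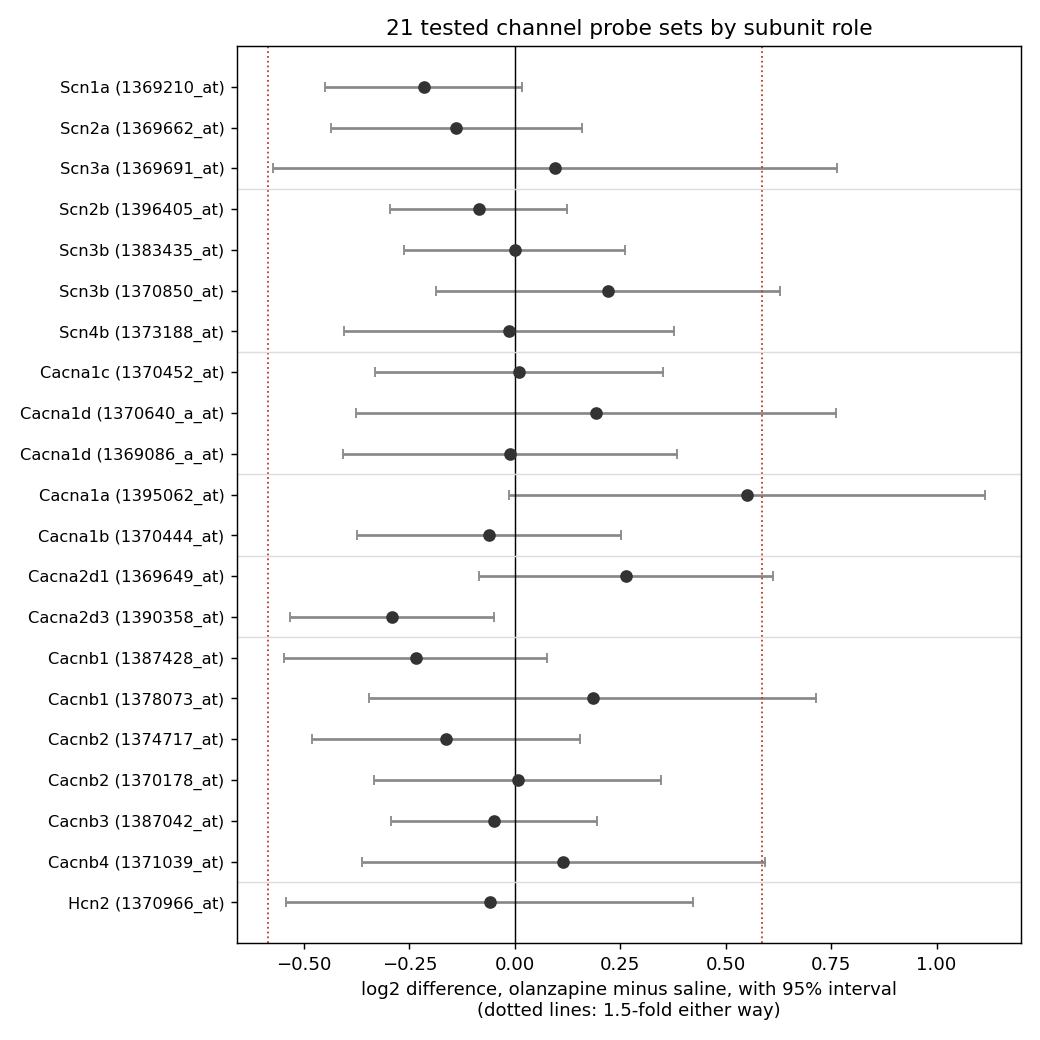
Log2 difference, olanzapine minus saline, with its 95% interval from limma for the 21 tested channel probe sets, ordered by subunit role, with dotted lines at 1.5-fold either way. The interval of Cacna2d3 alone leaves out 0, and that of Cacna1a reaches furthest, to 1.11.

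Pore-forming sodium channel subunits were covered by 9 genes with 1 probe set each, of which Scn1a, Scn2a and Scn3a were tested. Scn1a, whose channel is prominent in fast-spiking interneurons, had intensities of 2693, 2974, 3521 and 3128 on olanzapine 9, 14, 18 and 19. On saline 14, 15, 17 and 19 they were 4218, 3366, 3665 and 3122. Olanzapine 9 and 14 lay below every saline array, whereas olanzapine 18 and 19 fell within the saline range. The difference was -0.22 (SE 0.11, 95% interval -0.45 to 0.017, limma unadjusted p = 0.0663, adjusted p = 0.645). It was -0.14 without saline 14 and -0.28 without olanzapine 18. Summed GABAergic interneuron markers, all 5 of them above the filter, were 10080 to 11190 in olanzapine and 10460 to 12400 in saline. Gad1, at 6058 to 7815 over the arrays, made up most of that sum. Gad1, Sst and Pvalb differed by -0.0234, -0.109 and -0.0161, whereas Gad2 and Slc32a1 differed by 0.1695 and 0.0865. The part of these markers in the Scn1a values was not tested.

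Scn2a, the main subunit of excitatory cortical axons, had intensities of 361, 320, 345 and 318 on olanzapine 9, 14, 18 and 19 and of 406, 386, 320 and 397 on saline 14, 15, 17 and 19. Saline 17 lay among the olanzapine arrays and the other saline arrays lay above all of them, with a difference of -0.14 (SE 0.14). Scn3a, which is expressed mainly before birth, ran from 82.5 to 250.1 in olanzapine and from 83.0 to 335 in saline. Both groups held arrays about as low as the other, and the difference of 0.095 (SE 0.31) had the widest interval of the sodium channel genes, -0.57 to 0.76. Its sign turned when saline 15, saline 19 or olanzapine 14 was left out. Scn3a and Scn2a are next to each other on the chromosome, and Scn1a, Scn9a and Scn7a follow each other in a row, by the order of protein-coding genes in RefSeq. The sign of Scn3a was not stable, so its direction could not be compared with that of its neighbour Scn2a.

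The 6 sodium channel genes below the filter included those best known outside the cortex. Scn4a, the skeletal muscle channel, had intensities of 87.9, 46.1, 63.6 and 77.0 on olanzapine 9, 14, 18 and 19. On saline 14, 15, 17 and 19 it had 24.0, 42.9, 22.5 and 21.3. All olanzapine values lay above all saline values, the nearest being olanzapine 14 and saline 15. Among the 25 channel probe sets below the filter it was the 1 without overlap, where 2.81% of all probe sets below the filter did not overlap and 1.6% were higher in this way. With no filter its difference was 0.53 (SE 0.18, limma unadjusted p = 0.0105, adjusted p = 0.634). Summed skeletal and cardiac muscle markers, 2 of 4 above the filter, were 250.2 to 478 in olanzapine and 362 to 534 in saline, with no marker at 0 on any array. The groups overlapped there, and the 2 markers above the filter went opposite ways, Acta1 by -0.72 and Myh7 by 0.43. The part of muscle tissue in the Scn4a values was not tested.

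Scn7a encodes an atypical sodium-sensing channel of glial and other non-neuronal cells. Its values were 199.7, 28.4, 44.3 and 57.2 on olanzapine 9, 14, 18 and 19 and 18.5 to 38.9 in saline, so that olanzapine 9 stood far above the rest while olanzapine 14 fell within the saline range. The summed meningeal markers, all 6 above the filter, were also highest on olanzapine 9, at 7868, with 2804 as the lowest olanzapine array and 2125 to 2668 in saline. The part of meningeal tissue in the Scn7a values was not tested. Scn8a, the channel of nodes of Ranvier and initial segments, was at 8.89 on olanzapine 9 and 108 to 130 on the other olanzapine arrays, against 57.5 to 155 in saline. Apart from olanzapine 9 the groups overlapped. The sensory neuron channel genes Scn9a, Scn10a and Scn11a reached at most 126, 121 and 135 in olanzapine and at most 195, 139 and 79.2 in saline. Their groups overlapped. Of the 3 sensory neuron markers with a probe set, 1 was above the filter.

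Sodium channel beta subunits, adhesion-type proteins that join the pore and tune its gating, had 5 probe sets of 3 genes, 4 of them tested. Scn2b, whose protein is bound to the pore by a disulphide bridge, had intensities of 4537, 5619, 5324 and 4625 on olanzapine 9, 14, 18 and 19 and of 5080, 5576, 5968 and 4726 on saline 14, 15, 17 and 19. Each group held low and high arrays, and the groups overlapped over most of their ranges. The difference was -0.086 (SE 0.10) as deposited, 0.020 after quantile normalization and -0.031 without saline 17. Scn3b, read on probe set 1383435_at, ran from 2010 to 2295 in olanzapine and from 1777 to 2595 in saline. All 4 olanzapine arrays fell inside the saline range, with a difference of -0.00070 and an interval of -0.26 to 0.26. A second tested probe set of Scn3b, 1370850_at, differed by 0.22 (SE 0.19). Scn4b, which lies beside Scn2b on the chromosome, ran from 432 to 805 in olanzapine and from 415 to 682 in saline and differed by -0.014 (SE 0.18).

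Among the L-type calcium channels, which couple activity to gene expression, Cacna1c and Cacna1d were tested. Cacna1c had intensities of 486, 510 and 493 on olanzapine 9, 14 and 19 and 462 on olanzapine 18. In saline it had 432, 350, 579 and 618 on animals 14, 15, 17 and 19. The olanzapine arrays lay close together inside the wider saline range, at 488 ± 20.1 against 494 ± 126 (mean ± SD, n = 4 each), and the difference was 0.010 (SE 0.16). No test of the difference in spread was made. Cacna1d had 2 tested probe sets, 1370640_a_at at 0.19 (SE 0.27) and 1369086_a_at at -0.012 (SE 0.19). On the brighter one saline 15 stood at 77.9, below the 177 to 296 of olanzapine and the 191 to 332 of the other saline arrays. Without it the difference was -0.098. Cacna1f, the retinal channel, was at 4.92 to 10.4 in olanzapine and 8.34 to 16.4 in saline, and Cacna1s, the skeletal muscle channel, at 20.2 to 68.8 and 12.7 to 38.8. Neither was tested, and both pairs of ranges overlapped.

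Presynaptic calcium channels, which supply the calcium for transmitter release, had 8 probe sets of Cacna1a (P/Q-type), Cacna1b (N-type) and Cacna1e (R-type), and 2 were tested. Cacna1a, on probe set 1395062_at, had intensities of 305, 187, 136 and 201 on olanzapine 9, 14, 18 and 19. On saline 14, 15, 17 and 19 it had 134, 199, 117 and 49.1. Saline 15 lay among the olanzapine arrays, and saline 19 was the lowest of all. The difference of 0.55 (SE 0.26, 95% interval -0.013 to 1.11, limma unadjusted p = 0.0549, adjusted p = 0.615) was the largest among the 21, and without saline 19 it was 0.32. It was 0.83 with 1 added before the log and 0.29 with 250 added. Of the other 4 Cacna1a probe sets, all below the filter, 3 were also higher with no filter, by 0.25, 0.31 and 0.55, and 1386939_a_at differed by -0.082. No one of the 5 passed an unadjusted p under 0.05. Cacna1b had intensities of 440.0, 399.6, 299 and 412 on olanzapine 9, 14, 18 and 19 and of 442, 417, 358 and 402 on saline 14, 15, 17 and 19. Olanzapine 18 was the lowest array and the rest overlapped, with a difference of -0.061 (SE 0.15). Cacna1e stayed between 5.87 and 64.2 on every array.

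The T-type channels, which open near rest and support burst firing, could not be tested. All 5 probe sets of Cacna1g, Cacna1h and Cacna1i lay below the filter, with values of 6.76 to 189.8. The brightest, 1368398_at of Cacna1h, was at 36.4, 33.0, 40.2 and 123 on olanzapine 9, 14, 18 and 19 and at 158, 189.8, 48.2 and 33.0 on saline 14, 15, 17 and 19. Each group held both low and high arrays. The other Cacna1h probe set, 1379197_at, went the opposite way, at 0.33 with no filter where 1368398_at gave -0.42, and neither passed an unadjusted p under 0.05.

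Alpha2delta subunits sit outside the membrane, bring calcium channels to the surface and are bound by the gabapentinoid drugs in the case of Cacna2d1. Cacna2d3, expressed widely in brain, had intensities of 1619, 1808, 1783 and 1977 on olanzapine 9, 14, 18 and 19. On saline 14, 15, 17 and 19 they were 2108, 2748, 2004 and 2039. Every olanzapine array lay below every saline array, by a narrow margin between olanzapine 19 and saline 17, and saline 15 stood well above the rest. The means were 1797 ± 147 in olanzapine and 2225 ± 352 in saline (SD, n = 4 each). The difference was -0.29 (SE 0.11, 95% interval -0.53 to -0.048), which is 0.818-fold on the scale used, with a limma unadjusted p of 0.0219 and an adjusted p of 0.518. It was the 1 of 21 tested channel probe sets whose groups did not overlap (4.76%), where 4.47% of all probe sets tested did not overlap and 2.07% were lower in this way. Without saline 15 the difference was -0.19 (unadjusted p = 0.0773), and without olanzapine 9 it was -0.24 (unadjusted p = 0.0699). After quantile normalization it was -0.28 (unadjusted p = 0.0214, adjusted p = 0.753), and with no trend in limma's moderation the unadjusted p was 0.0524. With the animal number as a block, the difference rested only on the arrays numbered 14 and 19, which occur in both groups. That fit left 1 residual degree of freedom and gave -0.13 (limma unadjusted p = 0.421). Over all alternatives in limma the adjusted p ran from 0.313 to 0.998.

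Cacna2d1 went the other way. It had intensities of 715, 929, 566 and 626 on olanzapine 9, 14, 18 and 19 and of 670, 456, 669 and 515 on saline 14, 15, 17 and 19. Olanzapine 14 was the highest array and saline 15 the lowest, and the other arrays overlapped. The difference was 0.26 (SE 0.16, limma unadjusted p = 0.127, adjusted p = 0.729), and 0.14 without olanzapine 14. Summed neuron markers, 4 of 5 above the filter, were 29510 to 30840 in olanzapine and 31700 to 38100 in saline, highest on saline 15. Snap25 made up most of that sum, at 15290 to 17690 in olanzapine and 18410 to 22960 in saline. It is among the brightest 5% of tested probe sets, whose median difference as deposited was -0.15. Rbfox3 and Nefl of that list differed by 0.020 and -0.034, and Stmn2 and Snap25 by -0.22 and -0.35. The part of these in the Cacna2d3 values was not tested.

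Calcium channel beta subunits bind the pore inside the cell, and help it leave the endoplasmic reticulum and open. All 4 genes were tested, on 6 of 7 probe sets. Cacnb3 had intensities of 1004, 1027, 981 and 1023 on olanzapine 9, 14, 18 and 19 and of 930.3, 1263, 1058 and 961 on saline 14, 15, 17 and 19. The olanzapine arrays again fell inside the saline range, and the difference was -0.050 (SE 0.12, 95% interval -0.29 to 0.20). Cacnb1 differed by -0.23 (SE 0.15) on 1387428_at and by 0.18 (SE 0.25) on 1378073_at. On the brighter probe set olanzapine 14 was the lowest array, at 425 against 594 to 640 on the other olanzapine arrays and 587 to 795 in saline, and without it the difference was -0.12. Cacnb2 differed by -0.16 (SE 0.15) on 1374717_at and by 0.0069 (SE 0.16) on 1370178_at, and the first was -0.071 without olanzapine 19. Cacnb4, whose mean lay just above the filter, differed by 0.12 (SE 0.22), and by 0.0057 without saline 15.

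Of the 3 HCN channel genes read here, 1 was tested. Hcn2, whose channel opens slowly and responds strongly to cyclic AMP, was at 157, 89.2, 163 and 125 on olanzapine 9, 14, 18 and 19 and at 178, 83.0, 150.1 and 161 on saline 14, 15, 17 and 19. Each group had 1 array well below the others, olanzapine 14 and saline 15, and the ranges matched closely. The difference was -0.059 (SE 0.23, 95% interval -0.54 to 0.42). Hcn3 was at 23.8 to 73.8 in olanzapine and 27.4 to 110.2 in saline. Hcn4, the main subunit of the cardiac pacemaker, was at 3.08 to 6.16 in olanzapine and 3.58 to 13.7 in saline.

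Probe sets of the same gene did not always share a direction. As deposited, in each of the 4 genes with 2 tested probe sets, Scn3b, Cacna1d, Cacnb1 and Cacnb2, 1 was higher and 1 lower, some of them by very little. After quantile normalization both probe sets were higher in Scn3b (0.019 and 0.17) and both lower in Cacnb2 (-0.23 and -0.054), and the signs still differed in Cacna1d and Cacnb1. Of the 10 genes with several probe sets of any brightness, 2 had the same sign on all of them with no filter. These were Scn2b and Cacna1c. The share over all genes with several probe sets was not counted, so this is not a result about the channels. No probe set of these 10 genes passed an unadjusted p under 0.05 in limma with no filter.

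Of the markers with a probe set, 4 of 5 neuron, 5 of 5 astrocyte and 4 of 4 oligodendrocyte markers were above the filter, and 0 of 3 choroid plexus markers were. The deposited scale carried a shift with brightness. Median intensity was 170 to 189 on olanzapine arrays and 159 to 191 on saline arrays, and saline 15 resembled the other arrays least (median correlation 0.949, against 0.962 to 0.968 for the other 7). Among the 5% of tested probe sets with the most signal, where Scn2b was the 1 channel probe set, the median difference was -0.15. Quantile normalization brought it to 0.00040. In the next band, from the 80th to the 95th percentile, which held Scn1a, Scn3b (1383435_at) and Cacna2d3, the median difference was -0.021.

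**Figure D3:**
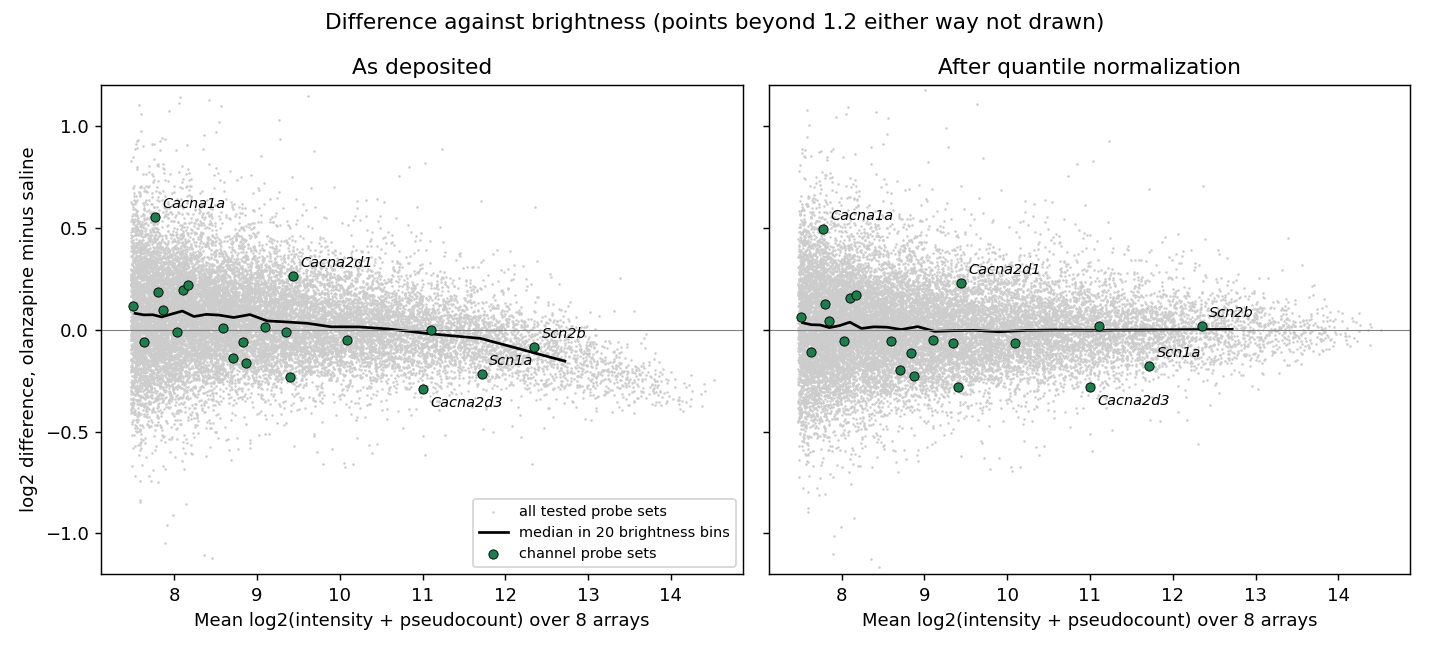
Log2 difference, olanzapine minus saline, against mean brightness over the 8 arrays for all 18625 tested probe sets (grey), with the median in 20 bins of brightness (black line) and the 21 channel probe sets (green), as deposited on the left and after quantile normalization on the right. The line dips at the bright end as deposited, where Scn2b lies, and Cacna2d3 stays at -0.29 and -0.28 in the 2 panels.

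Other genes that bind or place these channels were read in 3 lists. Of 50 genes, 45 had a probe set and 26 were tested. Limma called 0 of them after adjustment, and 0 higher and 3 lower ones had an unadjusted p under 0.05, where 4.59% of all probe sets tested were higher and 3.73% lower at that level. Sodium channel partners had 8 higher and 6 lower of 14 tested, with a median of 0.036. Ank2, an ankyrin that anchors membrane proteins to spectrin, differed by -0.28 (SE 0.09, unadjusted p = 0.0072) as deposited and by -0.0090 after quantile normalization. Fgf12, an intracellular fibroblast growth factor homologue that slows inactivation, differed by -0.24 (SE 0.13), and Nfasc, the neurofascin of nodes and initial segments, by 0.24 (SE 0.14). Calcium channel partners and gamma subunits had 6 higher and 3 lower of 9 tested, with a median of 0.037. Calm2, a calmodulin gene, differed by -0.19 (SE 0.08) as deposited and -0.063 after quantile normalization. Gem, a small GTPase that holds back calcium channels, differed by -0.38 (SE 0.32) and the release-site scaffold gene Rims1 by 0.21 (SE 0.19). HCN channel partners had 1 higher and 2 lower of 3 tested, with a median of -0.050. Vapa, an endoplasmic reticulum contact protein gene, differed by -0.21 (SE 0.08) as deposited and 0.062 after quantile normalization. Flna, which encodes the actin cross-linker filamin A, and Vapb differed by 0.21 (SE 0.17) and -0.050 (SE 0.14).

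The regions upstream of the channel genes differed in their content of CG dinucleotides, which mark the promoters of many broadly active genes. RefSeq promoter windows on GRCr8 were found for 22 of the 31 genes, and the 250 bases before each start were searched for the letters CG, which read the same on both strands. At least 20 CG were found in 1 or more windows of 8 of the 13 genes with a tested probe set. Of the 9 genes without one, 1 had as many, Scn8a. Of all 33465 windows, counted singly and not per gene, 16.7% held as many, and the median was 5. Among tested genes the count ran from 1 in Scn2b to 56 in Cacna1d. The limit of 20 was set with these genes known, and no test was made. The windows of the 2 genes whose groups did not overlap are shown as an example of each kind, with every CG in capitals. That of Cacna2d3, chr16:4918900-4919149 on the minus strand, held 34 CG and 78.8% G or C, and that of Scn4a, chr10:91796325-91796574 on the minus strand, held 4 CG and 62.8%.
Cacna2d3: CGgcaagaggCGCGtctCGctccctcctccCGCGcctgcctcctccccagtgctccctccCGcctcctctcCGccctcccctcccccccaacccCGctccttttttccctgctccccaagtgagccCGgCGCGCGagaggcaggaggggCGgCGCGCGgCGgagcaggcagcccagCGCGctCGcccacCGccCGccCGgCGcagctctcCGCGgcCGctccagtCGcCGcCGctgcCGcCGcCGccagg
Scn4a: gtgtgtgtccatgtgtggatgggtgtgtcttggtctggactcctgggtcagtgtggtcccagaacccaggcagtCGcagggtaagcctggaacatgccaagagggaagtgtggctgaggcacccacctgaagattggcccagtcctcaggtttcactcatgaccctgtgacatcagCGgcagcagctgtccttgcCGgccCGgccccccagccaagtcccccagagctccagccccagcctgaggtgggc

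**Figure D4:**
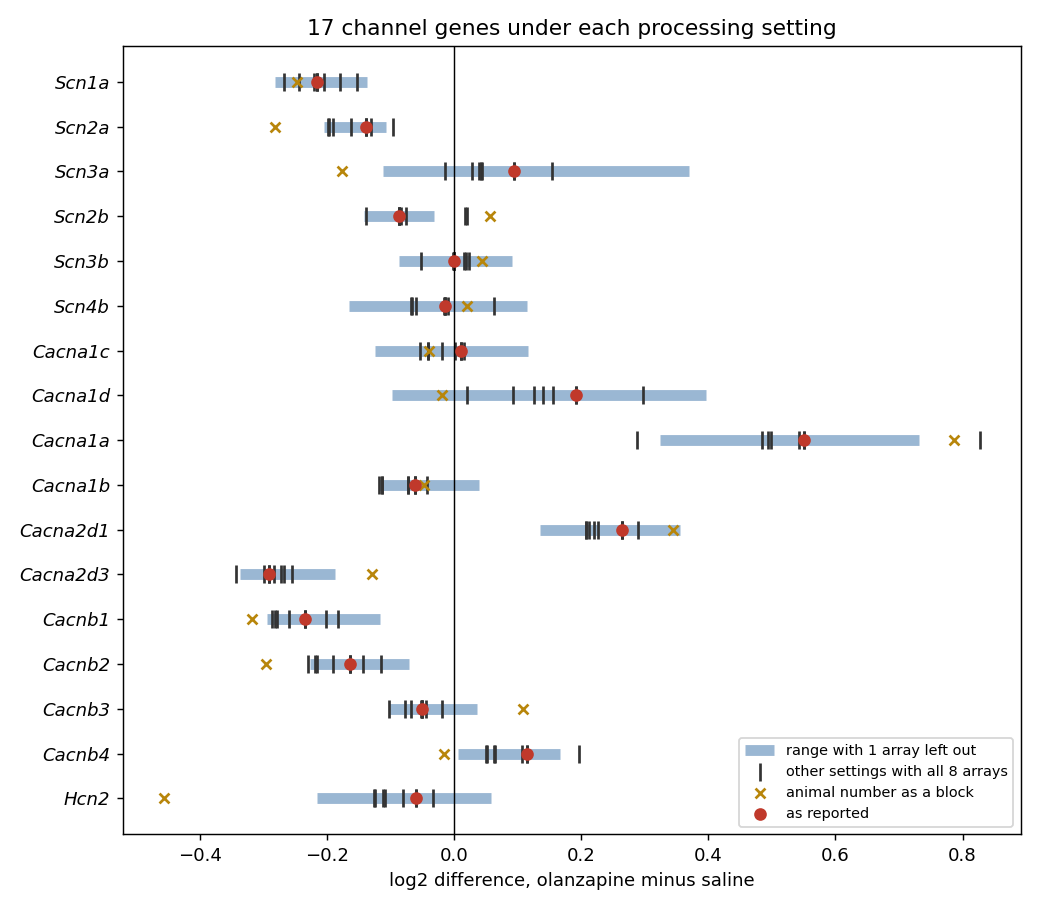
Log2 difference, olanzapine minus saline, of the 17 channel genes with a tested probe set, as reported (red), under the other settings with all 8 arrays and the same probe set (black bars), with the animal number as a block (crosses) and over the range with 1 array left out (blue band). Scn1a, Scn2a, Cacna2d3, Cacnb1 and Cacnb2 stay below 0 and Cacna1a and Cacna2d1 above 0 at every setting drawn, although the next brightest probe set, which is not drawn, gave 0.18 for Cacnb1 and 0.0069 for Cacnb2, whereas Scn3b and Cacna1c lie on both sides.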

How the data were processed

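The authors deposited linear probe set intensities for 8 arrays, 31099 probe sets of which 57 are controls. Trimming 2% at each end gave means of 500.1 to 500.2, so all arrays share a scale. Software and background correction: not given in the sources used here. Probe sets were named from the platform annotation, with symbols checked by Entrez identifier in RefSeq (GRCr8).

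Intensities became log2(intensity + 63.4), with the 25th percentile of the values added. The 18625 probe sets whose mean exceeded the 40th percentile were fitted in limma 3.58.1 under R 4.3.3 (lmFit, eBayes with trend, two-sided, Benjamini-Hochberg over all 18625 at 0.05) with no covariates. The model was tested on simulated data. The number of arrays limits the precision. Each array is taken as 1 animal, from the numbers in the titles.

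Alternatives were quantile, median and cyclic loess normalization, pseudocounts of 1 and 250, no filter, a filter at the 60th percentile, array weights, no trend, a block on animal number, each array left out, and each gene's next brightest probe set. The channel genes, the partner and marker lists and the tests were chosen with earlier results of these data known. All channel genes are named, values on every array are given for those without overlap or with an unadjusted p under 0.05 and the brightest of each role, and 3 genes with the smallest p are named per partner list. Array values of Scn2a, Cacna1a, Cacna2d1 and Scn7a were added after they were seen.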

Additional observations from a re-analysis of the deposited data

Results flagged for a closer look

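In 8 of the 92 groups of 4 arrays formed by the 46 channel probe sets, 1 array stood apart from the other 3 by more than Dixon's 95% limit, on the log2 scale. For independent normal values this happens in about 1 in 20 groups. The share over all probe sets is not given here, so the count is not a result about the channels. Among tested probe sets these were Cacna2d3, at 2748 on saline 15 against 2004 to 2108 on the other saline arrays, and Scn4b, at 415 on saline 14 against 632 to 682. The rest lay below the filter. In olanzapine, Scn8a was at 8.89 on olanzapine 9 against 108 to 130, and Cacna1h (1368398_at) was at 123 on olanzapine 19 against 33.0 to 40.2. In saline, Scn4a was at 42.9 on saline 15 against 21.3 to 24.0, Cacna1d (1370637_at) at 102.6 on saline 15 against 5.40 to 15.4, and Cacna1s at 38.8 on saline 15 against 12.7 to 16.4. Cacna1a (1386939_a_at) was at 93.7 on saline 17 against 7.63 to 9.79. Saline 15 held 4 of these 8 values, most of them on probe sets below the filter. The number of such values per array over all probe sets was not counted. By correlation over all probe sets, saline 15 was the array least like the others (median correlation 0.949).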

How the results depend on the processing

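No channel gene and no partner gene passed an adjusted p of 0.05 under any alternative run, and no gene value moved past it. Over all probe sets the adjusted count was 0, rising to 6 with a replicate block and ranging from 0 to 106 with 1 array left out (106 without saline 19). The unadjusted count was 1549, 991 with the block and 1155 to 2141 with 1 array left out. Channel probe sets at an unadjusted p under 0.05 numbered 1, against 2 with no filter (Scn4a added), 3 with array weights (Scn1a and Cacna1a added), 0 with no trend and 0 to 3 with 1 array left out. With the block it was again 1, Cacna1a. Their median of -0.012 was -0.064 after median centring, -0.061 with a filter at the 60th percentile and -0.075 (without saline 19) to 0.015 (without olanzapine 18) with 1 array left out. Partner genes at that level numbered 3, against 5 with no filter, 1 after quantile normalization, cyclic loess, no trend and the block, and 2 to 4 with 1 array left out. Their median of 0.034 was -0.018 after median centring, 0.097 with the block and 0.0048 to 0.042 with 1 array left out.

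Signs turned for 12 of the 17 genes under at least 1 alternative. After quantile normalization Scn2b was 0.020, Scn3b 0.019 and Cacna1c -0.053, and after cyclic loess 0.018, 0.024 and -0.041. Median centring gave -0.042 for Cacna1c. Array weights gave -0.014 for Scn3a, 0.015 for Scn3b, 0.062 for Scn4b and -0.020 for Cacna1c. The next brightest probe set gave 0.22 for Scn3b, -0.012 for Cacna1d, 0.18 for Cacnb1 and 0.0069 for Cacnb2. The replicate block gave -0.18 for Scn3a, 0.057 for Scn2b, 0.044 for Scn3b, 0.020 for Scn4b, -0.040 for Cacna1c, -0.019 for Cacna1d, 0.11 for Cacnb3 and -0.016 for Cacnb4, and, with no change of sign, -0.13 for Cacna2d3, -0.28 for Scn2a and -0.46 for Hcn2. With 1 array left out Scn3a ran from -0.11 to 0.37, Scn3b from -0.086 to 0.091, Scn4b from -0.16 to 0.12, Cacna1c from -0.12 to 0.12, Cacna1d from -0.098 to 0.40, Cacna1b from -0.12 to 0.040, Cacnb3 from -0.10 to 0.036 and Hcn2 from -0.22 to 0.058. The cause was not tested. Only animal numbers 14 and 19 occur in both groups, so every difference from the block rests on those arrays and not on all 8. Nothing in the labels pairs those animals. Deviations from the group means correlated at 0.075 and 0.11 between same-numbered arrays. Between olanzapine and saline arrays with different numbers they correlated at -0.128 to 0.132. The block left 1 residual degree of freedom. Dim signal limits the 25 probe sets below the filter, whose single values ran from 2.26 to 199.7.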

Other observations

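Ratios between subunits of the same role were also compared within arrays, a test chosen after the values were seen. Over 15 pairs of tested genes, the log2 ratio of Cacna1a to Cacna1b differed by 0.61 between olanzapine and saline (exact two-sided permutation p = 0.0571, 0.750 after Benjamini-Hochberg adjustment over the 15 pairs). That of Cacna2d1 to Cacna2d3 differed by 0.55 (exact permutation p = 0.114, adjusted 0.750). No other pair had an exact p below 0.171, and no pair passed the adjustment. The 8 arrays can be assigned to the groups in 70 ways, which sets a floor under the exact p. At that floor 1 pair alone could not pass over 15 pairs, so the failure to pass was largely fixed in advance.

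Pex5l, which encodes the HCN channel accessory protein TRIP8b, lay below the filter. It had intensities of 88.9, 115, 82.9 and 119 on olanzapine 9, 14, 18 and 19 and of 68.5, 20.7, 74.4 and 28.5 on saline 14, 15, 17 and 19. All olanzapine values lay above all saline values, where 1.6% of the probe sets below the filter were higher in this way, and the gene was named after its values were seen. Of the 45 partner genes with a probe set, Calm2 was the other without overlap, and it was lower. It had 5444 to 6449 in olanzapine and 6598 to 7589 in saline, where 2.07% of probe sets tested were lower in this way.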
